A study of Mus musculus with 6 samples.

Results

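Prostanoids are short-lived lipid signals made from arachidonate, and 10 mouse genes of their synthesis and reception are described here. They are the cyclooxygenases Ptgs1 and Ptgs2, the terminal synthases Ptgis, Ptges and Ptgds, and the receptors Ptgir, Ptger1, Ptger3, Ptger4 and Ptgfr. The members were taken by name from a count table of 55453 genes. All 10 had a row, and 9 passed the filter on low counts that left 18192 genes to test. Ptgds was the member that did not pass.

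RNA was sequenced from mouse aortae, 1 per library, after removal of the outer and inner layers to leave the media, according to the labels. All mice carried the tamoxifen-inducible driver Itga8-CreERT2 and received 5 daily injections of 33 mg/kg tamoxifen, and the aorta was removed 10 days after the last dose. The 3 control mice (the controls below) were heterozygous for a floxed allele of Srf, which encodes the transcription factor SRF (serum response factor), so their recombined cells keep 1 intact copy, and the 2 experimental mice (the homozygotes) were homozygous for it. The driver is named for Itga8, an integrin gene of smooth muscle, so the cells meant to recombine are those of the media. A further homozygous replicate (replicate 1) is listed in the labels and was not analysed here, and the submitters state that they left out 1 of 3 homozygous mice for standing apart or for a sampling error. No label gives the age or sex of the mice.

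Phospholipases release arachidonate from membranes, the cyclooxygenases turn it into prostaglandin H2, and a terminal synthase in each cell type decides which prostanoid is made from that. In the vessel wall prostacyclin, made by the Ptgis enzyme, relaxes smooth muscle through its receptor and cyclic AMP, while thromboxane and prostaglandin F2alpha constrict it through calcium. Prostaglandin E2 does either, depending on which of its receptors a cell carries.

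Libraries held 26177821 to 34311855 counts, and values are CPM, counts scaled to a common library size after TMM normalization. Srf stood at 56.1, 64.4 and 68.3 CPM in the controls (replicates 1, 2 and 3, the order used throughout) and at 45.0 and 38.6 CPM in the homozygotes (replicates 2 and 3), a log2 fold change of -0.59 (SE 0.122; edgeR adjusted p = 0.115; DESeq2 adjusted p = 0.00371, range 0.00371 to 0.543). Smooth muscle markers, with Myh11 the most abundant, summed to 24237 to 25663 CPM in the heterozygous and 14109 to 14755 CPM in the homozygotes. Markers of other tissues were present although the aortae had been stripped. Heterozygous replicate 3 stood apart, at 56.4 on a first principal component (51.6% of the variance) where the other libraries lay between -42.9 and 8.67. The homozygous libraries differed in summed endothelial markers, at 1217 CPM in replicate 2 and 455 CPM in replicate 3. Vwf (463 and 96.0 CPM) and Pecam1 (340 and 115 CPM) were the largest parts of these sums, while Kdr was level (60.1 and 59.9 CPM). In RNA from whole tissue, fewer cells of a type and less RNA per cell cannot be told apart.

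The members with the smallest p were 2 synthesis genes. Ptgis and Ptgs2 were lower in both homozygous libraries than in every heterozygous library, at 0.685 and 0.497 times the heterozygous level. Ptgir, the prostacyclin receptor, and Ptges, a prostaglandin E2 synthase, were higher in both homozygous libraries, at 1.72 and 1.59 times. Ptgs1 and Ptger4 had fold changes near 0, and their direction turned with the omission of a single library.

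No member passed the main test. With edgeR's quasi-likelihood test and Benjamini-Hochberg adjustment over all genes, 0 members passed an adjusted p of 0.05 in either direction, and the share of all 18192 genes called was 0% in each direction. At an unadjusted p under 0.05, 2 of the 9 tested members were lower, against 6.75% of all genes tested, and 1 was higher, against 9.04%. DESeq2 called 2 members (5.97% of all genes in either direction), Ptgis and Ptgs2, both lower (2.62% of all genes), and 0 higher (3.35%). The edgeR fit with no filter on low counts called the same 2 members lower, against 1.42% of its genes, and 0 higher, against 3.23%. limma-voom called 0 members in either direction, with 0% of all genes higher and 0.0055% lower. The 2 groups did not overlap for 5 tested members (35.6% of all genes), 3 of them lower in homozygous libraries (18.2%) and 2 higher (17.4%). The Ptger1 groups, counted among the lower, overlapped on library totals without TMM. The median log2 fold change of the 9 tested members was 0.08, beside -0.02 over all genes tested.

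**Figure D1:**
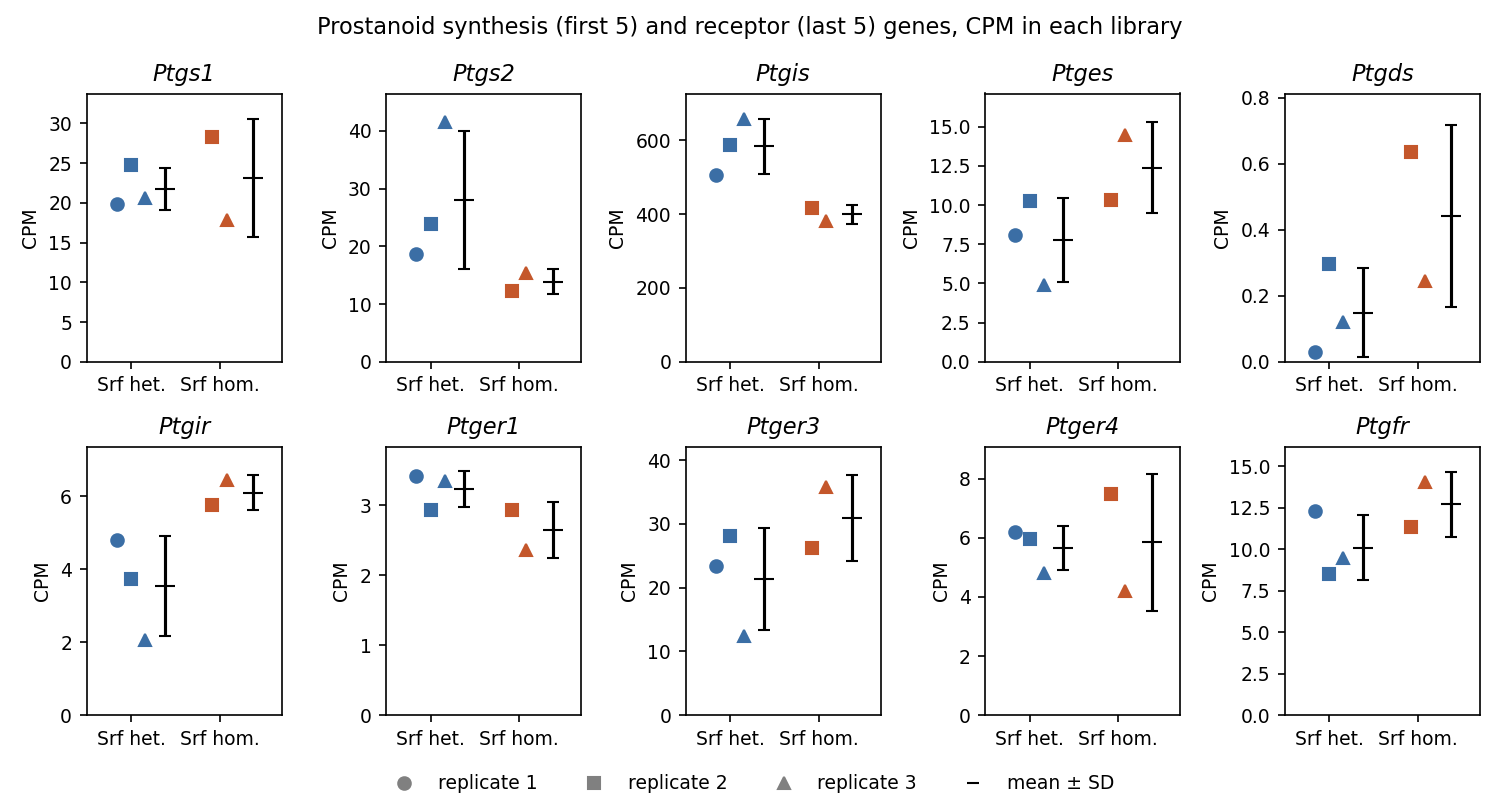
CPM of each of the 10 genes (y axis, from 0) in the 3 heterozygous and 2 homozygous libraries, with each library as a point and the mean ± SD as a bar. Ptgis and Ptgs2 are lower in both homozygous libraries than in any heterozygous one, Ptges and Ptgir are higher, and heterozygous replicate 3 has the highest Ptgs2 and the lowest Ptges, Ptgir and Ptger3.

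Ptgis, prostacyclin synthase, dominated the family. It lies on chromosome 2 of GRCm38, 167191805 to 167240604 on the minus strand, with 11 exons after merging its transcripts. It stood at 506, 587 and 656 CPM in the controls and 417 and 382 CPM in the homozygotes. The lowest heterozygous value was thus above the highest homozygous one. The means were 583 ± 75.3 CPM (SD, n = 3) and 399 ± 24.9 CPM (SD, n = 2). The log2 fold change, homozygous over heterozygous, was -0.55 (SE 0.134, 95% interval -0.86 to -0.23), with an edgeR adjusted p of 0.140. With DESeq2 the adjusted p was 0.00731, the lowest of the alternatives, which reached 0.592. The log2 fold change kept its sign in every alternative, from -0.64 to -0.44. Without heterozygous replicate 3 it was -0.44.

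Smooth muscle markers were lower in the same libraries, and all but Smtn (log2 fold change -0.42) by more. All 8 of the 8 tested were lower without overlap between groups (18.2% of all genes), with an unadjusted edgeR p under 0.05 each (6.75%). Their median log2 fold change was -0.75. Set against the summed smooth muscle markers of its own library, Ptgis stood at 204, 229 and 271 CPM per 10000 marker CPM in the controls and 283 and 271 in the homozygous libraries. On that scale, which was chosen after the values were seen, homozygous replicate 2 stood above every control, and homozygous replicate 3 (270.5) stood just under the highest control (270.7). The marker sum was itself lower in the homozygotes, so a gene that falls less than the markers rises on that scale. Fewer smooth muscle cells and less marker RNA per cell cannot be told apart in that sum. The scale therefore does not measure the smooth muscle share of the RNA. The part of the smooth muscle share of the RNA in the Ptgis difference was not tested.

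Levels per kb of merged exon place Ptgis far above the rest of the family. It stood at 227 CPM per kb in the heterozygous mean and 156 in the homozygous mean, and at 77.5% to 86.9% of the family's summed CPM. Ptgs2 (6.12 CPM per kb) and Ptgs1 (5.60) came next in the heterozygous libraries and overlapped each other. Ptger3 followed at 3.75, Ptges at 1.98, Ptgfr at 1.49, Ptgir at 1.06, Ptger4 at 0.850, Ptger1 at 0.592 and Ptgds at 0.0903 CPM per kb. Neighbours from Ptger3 to Ptger4 overlapped in their heterozygous libraries, while the steps from Ptgis to Ptgs2, Ptgs1 to Ptger3, Ptger4 to Ptger1 and Ptger1 to Ptgds were free of overlap. In the homozygous mean Ptgs2 took rank 5 instead of rank 2, at 3.03 CPM per kb, below Ptgs1 (5.95), Ptger3 (5.45) and Ptges (3.15).

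**Figure D2:**
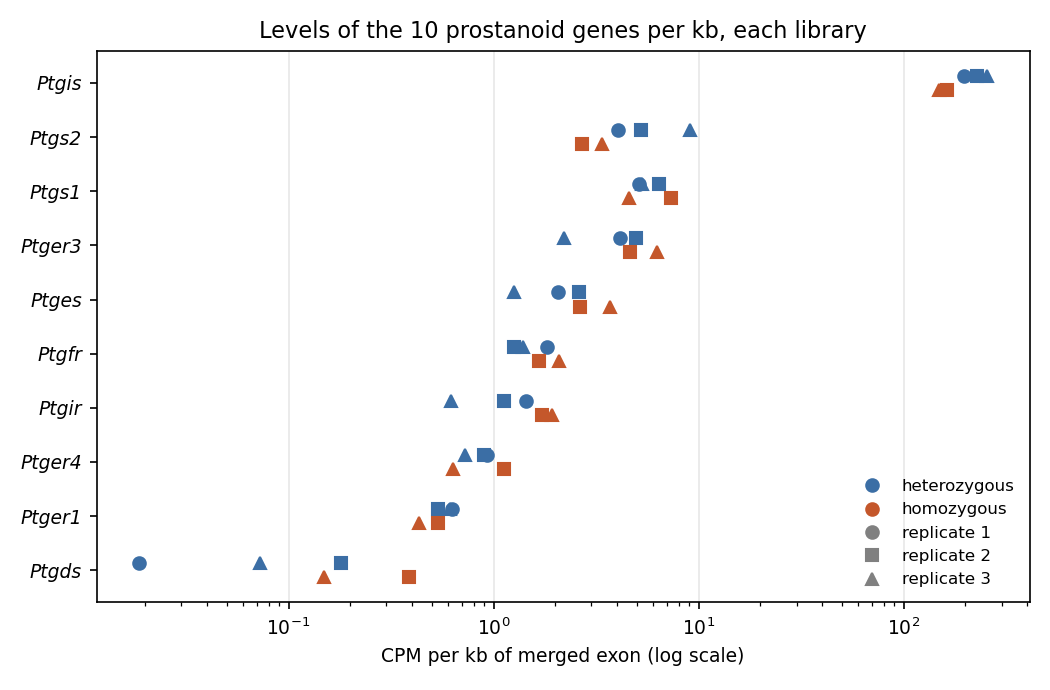
CPM per kb of merged exon (x axis, log scale) of the 10 genes in each library, ordered by the heterozygous mean. Ptgis stands at 149 to 256 CPM per kb, and no other member reaches 10 CPM per kb.

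The cyclooxygenases differed from each other. Ptgs2, the inducible enzyme (chromosome 1, 150100031 to 150108227, plus strand), stood at 18.6, 23.9 and 41.5 CPM in the controls and 12.3 and 15.4 CPM in the homozygotes. Heterozygous replicate 3 was far above the other heterozygous libraries, and the homozygous libraries were the lowest of all. The log2 fold change was -1.01 (SE 0.330, 95% interval -1.79 to -0.23), with an edgeR adjusted p of 0.216. With DESeq2 the adjusted p was 0.0321, within a range of 0.00153 to 0.592 over the alternatives. Without heterozygous replicate 3 the log2 fold change was -0.60, the weakest of the alternatives, with an edgeR adjusted p of 0.178.

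Ptgs1, the constitutive enzyme of many tissues (chromosome 2, 36230426 to 36252272, plus strand), stood at 19.8, 24.8 and 20.6 CPM in the controls. In the homozygous libraries it stood at 28.4 and 17.8 CPM, the highest and the lowest of the 5. Its fitted log2 fold change was 0.08 (SE 0.204, 95% interval -0.40 to 0.57; edgeR adjusted p = 0.883), and -0.29 without homozygous replicate 2. Summed endothelial markers also differed between these 2 libraries, as given above, against 810 to 1073 CPM in the controls. None of the 10 was at 0 in any library, and Kdr, Cdh5, Emcn and Cldn5 were lowest in heterozygous replicate 3. The part of endothelial RNA in the Ptgs1 values was not tested.

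The balance of the cyclooxygenases within a library does not depend on scaling. Ptgs2 took 48.4% of the counts of both genes in heterozygous replicate 1 (Wilson 95% interval 45.6% to 51.2%), 49.1% in replicate 2 (46.6% to 51.5%) and 66.8% in replicate 3 (64.5% to 69.1%). It took 30.3% in homozygous replicate 2 (27.7% to 33.0%) and 46.3% in homozygous replicate 3 (43.4% to 49.3%). These intervals cover counting error only. Both homozygous shares lay below every heterozygous share, although homozygous replicate 3 and the first 2 heterozygous libraries had overlapping intervals. The means were 54.8% ± 10.5 (SD, n = 3) and 38.3% ± 11.3 (SD, n = 2), a difference of -16.5 percentage points. A two-sided exact permutation test, which doubled the one-sided p, gave p = 0.2. That is the smallest p this doubled form can give for 3 against 2 libraries. The difference was -10.4 points without heterozygous replicate 3 and -8.46 without homozygous replicate 2.

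The upstream windows of these genes were searched for the CArG box, the motif that serum response factor binds, and Srf, whose own window carries it, is printed for comparison. RefSeq promoter windows (GRCm38.p6, 250 bases before to 50 bases after the start site) were found for 8 members, and there was none for Ptgis or Ptger1. The other motifs searched, each on both strands, were the TATA box TATAAA, the GC box GGGCGG and the cyclic AMP response element TGACGTCA. The 250 upstream bases are printed for Ptgs2, with the largest fold change among the tested members, and for Ptgir, with the largest in the other direction. They are also printed for Ptgds, the 1 member with a CArG-like match. Capitals mark every match.
Srf (chr17:46556163-46556412, minus strand): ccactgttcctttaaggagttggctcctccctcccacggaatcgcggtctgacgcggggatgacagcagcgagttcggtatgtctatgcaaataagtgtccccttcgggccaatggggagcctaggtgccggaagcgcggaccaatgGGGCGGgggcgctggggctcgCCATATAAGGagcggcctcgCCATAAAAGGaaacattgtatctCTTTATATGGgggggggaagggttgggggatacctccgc
Ptgs2 (chr1:150099781-150100030, plus strand): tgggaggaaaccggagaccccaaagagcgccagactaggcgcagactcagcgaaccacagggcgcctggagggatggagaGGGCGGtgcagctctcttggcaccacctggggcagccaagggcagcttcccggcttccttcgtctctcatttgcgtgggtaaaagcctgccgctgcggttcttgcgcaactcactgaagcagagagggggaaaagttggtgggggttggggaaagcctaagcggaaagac
Ptgir (chr7:16906240-16906489, plus strand): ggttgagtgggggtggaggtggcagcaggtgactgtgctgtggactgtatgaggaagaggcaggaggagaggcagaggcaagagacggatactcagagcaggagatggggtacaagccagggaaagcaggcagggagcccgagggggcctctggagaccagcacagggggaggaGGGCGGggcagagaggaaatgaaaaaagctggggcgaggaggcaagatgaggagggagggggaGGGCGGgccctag
Ptgds (chr2:25469750-25469999, minus strand): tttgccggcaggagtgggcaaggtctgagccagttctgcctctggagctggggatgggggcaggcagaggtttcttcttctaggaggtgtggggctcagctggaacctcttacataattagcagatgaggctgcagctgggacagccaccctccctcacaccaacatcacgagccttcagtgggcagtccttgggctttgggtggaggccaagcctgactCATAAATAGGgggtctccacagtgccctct

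The Srf window held 2 exact CArG boxes, whose first bases lie 82 and 62 bases before the start site, and a match with 1 mismatch 39 bases before it, which overlaps a TATAAA match on the other strand. None of the 8 member windows held an exact CArG box, against 1.63% of all 32851 windows of that length. With 1 mismatch allowed, 1 of 8 did (Ptgds, CATAAATAGG, 30 bases before the start site), against 21.1% of all windows. GGGCGG occurred in 6 of 8 member windows and in 35.7% of all windows. TATAAA and TGACGTCA occurred in 0 of 8, against 13.6% and 1.79%. G and C made up 50.7% to 67.0% of the member windows, and 52.7% in the median of all windows. The exact CArG box is so rare among all windows that its absence from 8 says little. Sites outside the windows were not searched.

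Ptges is the inducible, membrane-bound prostaglandin E2 synthase (chromosome 2, 30889471 to 30929863, minus strand). It stood at 8.09, 10.3 and 4.93 CPM in the controls and 10.3 and 14.5 CPM in the homozygotes. The groups were separated only narrowly, 10.29 CPM in heterozygous replicate 2 against 10.32 CPM in homozygous replicate 2. Homozygous over heterozygous, the log2 difference was 0.67 (SE 0.297, 95% interval -0.03 to 1.37; edgeR adjusted p = 0.339), 0.45 without heterozygous replicate 3 and 0.40 without homozygous replicate 3.

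Ptgds, the lipocalin-type prostaglandin D2 synthase, was near the limit of detection. It had 1, 10 and 3 counts in the heterozygous and 18 and 8 counts in the homozygous libraries. The groups overlapped. It was not in the edgeR fit, and DESeq2 gave a log2 fold change of 1.55 (SE 1.078, unadjusted p = 0.151) with no adjusted p.

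Among the receptors, Ptgir differed most. The prostacyclin receptor, which raises cyclic AMP (chromosome 7, 16906490 to 16910905, plus strand), stood at 4.80, 3.74 and 2.07 CPM in the controls and 5.76 and 6.45 CPM in the homozygotes. Both homozygous values were above all heterozygous ones, and heterozygous replicate 3 was the lowest. The log2 fold change was 0.78 (SE 0.319, 95% interval 0.02 to 1.53; edgeR adjusted p = 0.302). It was 0.54 without heterozygous replicate 3 and lay between 0.54 and 1.11 in the alternatives.

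Ptger3, a prostaglandin E2 receptor that lowers cyclic AMP (chromosome 3, 157566892 to 157645888, plus strand), was the most abundant per kb of the 5 member receptors. It stood at 23.4, 28.1 and 12.5 CPM in the controls and 26.2 and 35.8 CPM in the homozygotes. The groups overlapped, through heterozygous replicate 2. In the edgeR fit the log2 fold change was 0.54 (SE 0.312, 95% interval -0.20 to 1.27; edgeR adjusted p = 0.465), 0.29 without heterozygous replicate 3 and 0.30 without homozygous replicate 3.

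Ptges, Ptgir and Ptger3 all had their lowest value in heterozygous replicate 3. Summed brown adipocyte markers were lowest there too, while summed adipocyte markers were lowest in heterozygous replicate 1. The skeletal muscle (7.64 CPM), fibroblast (1510 CPM) and Schwann cell (142 CPM) marker sums were also lowest in heterozygous replicate 3. Macrophage, mesothelial, endothelial and smooth muscle marker sums were lowest in other libraries. Brown adipocyte markers, led by Ucp1, summed to 284, 559 and 194 CPM in the heterozygous and to 905 and 867 CPM in the homozygotes. Of these markers, 7 of 8 did not overlap between groups and were higher, against 17.4% of all genes tested. Adipocyte markers, led by Fabp4, summed to 1543, 2323 and 1591 CPM and to 2752 and 3000 CPM, with 6 of 8 not overlapping and higher (17.4%). Skeletal muscle markers, led by Myh1, summed to 388, 222 and 7.64 CPM and to 693 and 1965 CPM. Of the 8, 7 did not overlap and were higher (17.4%), and 2 of the 8, Myh4 and Pvalb, were at 0 in a library. No adipocyte or brown adipocyte marker was at 0 in any library. The part of these tissues in the 3 genes was not tested.

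**Figure D3:**
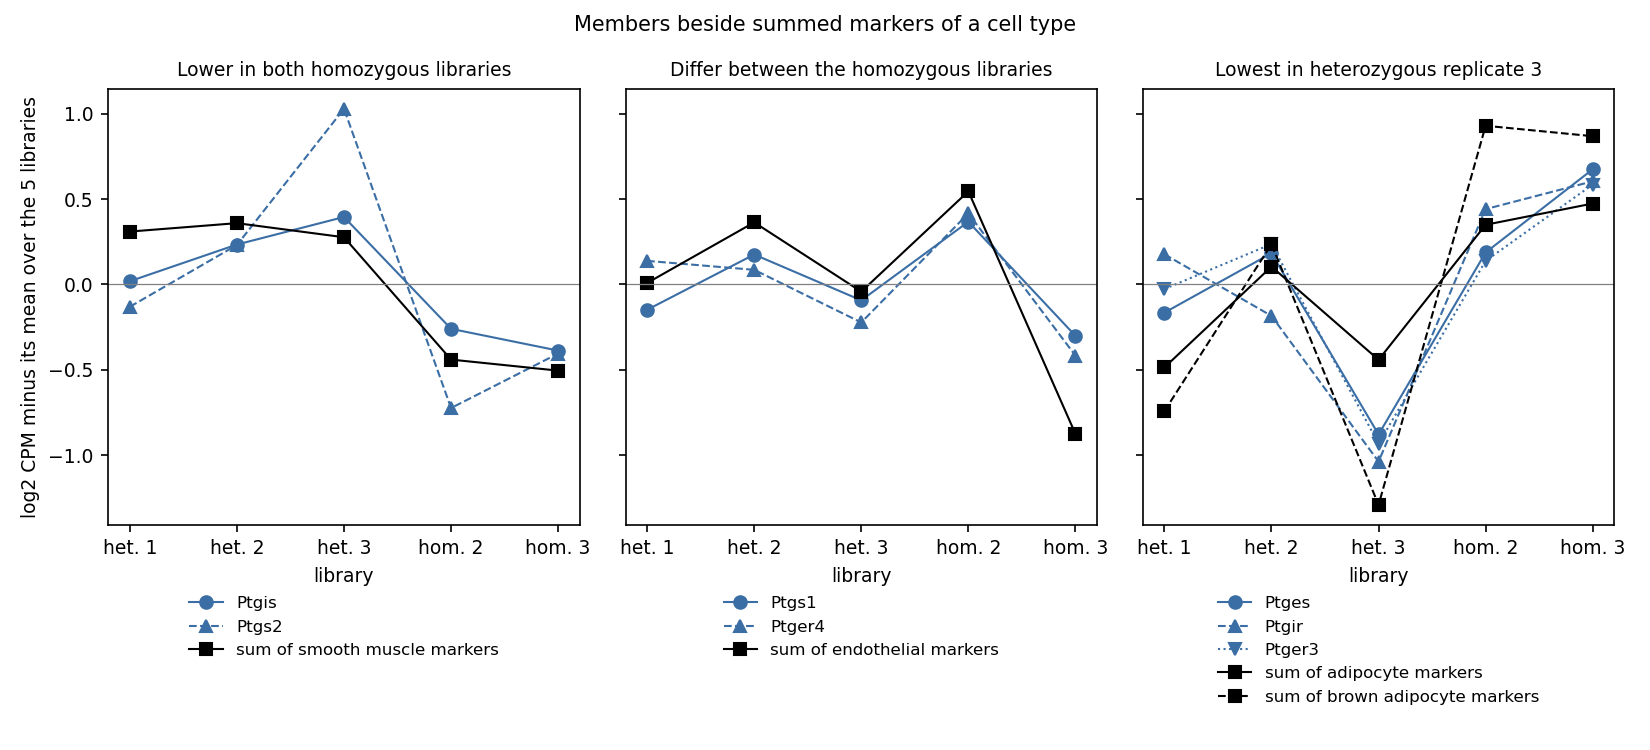
Log2 CPM minus its mean over the 5 libraries (y axis) for 7 genes (blue) and for summed cell type markers (black), by library (x axis), with lines that only guide the eye. The genes were grouped by the shape of their values, so a likeness within a panel is no test. Ptgis and Ptgs2 are below their mean in both homozygous libraries, as are smooth muscle markers. Ptgs1 and Ptger4 are highest in homozygous replicate 2 and lowest in homozygous replicate 3, as are endothelial markers. Ptges, Ptgir, Ptger3 and the brown adipocyte markers are lowest in heterozygous replicate 3, while the adipocyte markers are lowest in heterozygous replicate 1. Skeletal muscle, fibroblast and Schwann cell marker sums, which are not drawn, are also lowest in heterozygous replicate 3.

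Ptger4, a prostaglandin E2 receptor that raises cyclic AMP (chromosome 15, 5206661 to 5244187, minus strand), stood at 6.18, 5.96 and 4.81 CPM in the controls and 7.49 and 4.21 CPM in the homozygotes. As with Ptgs1, the homozygous libraries held both the highest and the lowest value. Its log2 fold change was 0.04 (SE 0.264, 95% interval -0.58 to 0.67; edgeR adjusted p = 0.959), with -0.43 without homozygous replicate 2 and 0.41 without homozygous replicate 3.

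Ptgfr, the receptor of prostaglandin F2alpha, which constricts through calcium (chromosome 3, 151796502 to 151837630, minus strand), stood at 12.3, 8.51 and 9.47 CPM in the controls and 11.3 and 14.1 CPM in the homozygotes. The groups overlapped. Between groups, log2 fold change was 0.33 (SE 0.189, 95% interval -0.12 to 0.78; edgeR adjusted p = 0.454), from 0.17 without homozygous replicate 3 to 0.50 without heterozygous replicate 1.

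Ptger1, a prostaglandin E2 receptor that signals through calcium (chromosome 8, 83666678 to 83672753, plus strand), stood at 3.41, 2.94 and 3.34 CPM in the controls and 2.93 and 2.37 CPM in the homozygotes. The groups were separated by less than 0.01 CPM. On library totals without TMM they overlapped, at 2.998 CPM in homozygous replicate 2 and 2.885 CPM in heterozygous replicate 2. Its log2 fold change was -0.29 (SE 0.204, 95% interval -0.77 to 0.19; edgeR adjusted p = 0.552), from -0.45 without homozygous replicate 2 to -0.14 without homozygous replicate 3. Ptger1 had 77 to 111 counts per library, and 56.0% of the 100-base words of its transcripts also occur in those of other genes, so its values are uncertain. Ptger4 overlaps Ttc33 on the opposite strand, and 12.3% of its words are shared, while the other members share at most 3.44%.

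**Figure D4:**
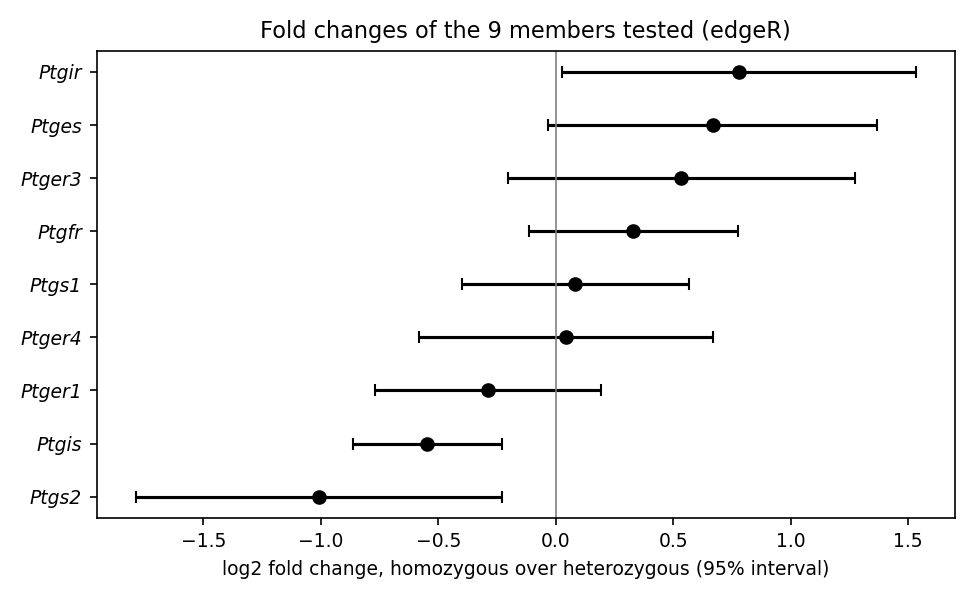
Log2 fold change, homozygous over heterozygous (x axis), of the 9 tested members from edgeR, with 95% intervals as bars. The intervals of Ptgs2 and Ptgis lie below 0, that of Ptgir lies just above it, and the other 6 include 0.

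The patterns most like those of the tested members with the largest changes were sought among all tested genes. The measure was the root mean square difference of mean-centred log2 CPM over the 5 libraries. For Ptgs2 the nearest were A530058O07Rik (0.0952), Dtna (0.119) and Gm49334 (0.130). For Ptgir they were Slc25a13 (0.0154), Cd80 (0.0567) and Ropn1l (0.0632). These were scarce, at 0.278 to 1.01, 0.477 to 1.47 and 0.119 to 0.491 CPM, where counting noise is large. With so few libraries many genes share a pattern.

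The other genes of the pathway were read from lists. In the thromboxane arm the receptor was lower and the synthase higher in the homozygotes. Tbxa2r, the constrictor receptor of thromboxane, stood at 24.3, 23.0 and 26.3 CPM in the controls and 17.5 and 15.8 CPM in the homozygotes. This was -0.56 in log2 fold change (SE 0.110; edgeR adjusted p = 0.111), and the DESeq2 adjusted p was 0.00455, with a range of 0.00455 to 0.543 over the alternatives. Tbxas1, thromboxane synthase, an enzyme of platelets and macrophages, stood at 3.84, 4.18 and 3.62 CPM and at 5.48 and 7.56 CPM. This was 0.75 in log2 fold change (SE 0.194; edgeR adjusted p = 0.152), and the DESeq2 adjusted p was 0.0419, with a range of 0.0260 to 0.635, and the log2 fold change was 0.50 without homozygous replicate 3. Macrophage markers, led by Lyz2, were higher in the same libraries, 231 to 311 CPM in sum against 368 to 496 CPM. Of the 10, 9 did not overlap and were higher (17.4% of all genes), and none was at 0. Their part in the Tbxas1 difference was not tested.

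Of the 7 other synthesis genes, all tested, edgeR called 0, DESeq2 called 1 higher (Tbxas1; 3.35% of all genes), and 2, Tbxas1 and Ptges2, were higher at an unadjusted edgeR p under 0.05 (9.04% of all genes). Their median log2 fold change was 0.35. Ptges2, a further prostaglandin E2 synthase, was at 0.35 (SE 0.132), with groups that did not overlap. Ptges3, a co-chaperone that also has that activity, was at -0.28 (SE 0.152). Hpgds, the prostaglandin D2 synthase of blood-derived cells, was at 0.60 (SE 0.345) and at -0.04 without homozygous replicate 3. The reductases Cbr1 (0.32, SE 0.158) and Akr1b3 (0.06, SE 0.102) and Prxl2b, a prostaglandin F synthase (0.35, SE 0.204), did not pass the test.

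Release of arachidonate was represented by 9 tested phospholipase A2 genes of 10. Pla2g4a, the cytosolic enzyme that feeds the cyclooxygenases, stood at 62.9, 70.1 and 91.5 CPM in the controls and 46.8 and 53.6 CPM in the homozygotes. Like Ptgs2 it was highest in heterozygous replicate 3 and lowest in homozygous replicate 2. Its log2 fold change was -0.57 (SE 0.169; edgeR adjusted p = 0.184), and the DESeq2 adjusted p was 0.0434, with a range of 0.0101 to 0.561. It was the 1 phospholipase that DESeq2 called (2.62% of all genes were called lower), edgeR called 0, and the median of the 9 was 0.12.

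Tbxa2r, Pla2g4a and Ptgs2 were also set beside the summed smooth muscle markers. Tbxa2r stood at 9.81, 8.94 and 10.9 CPM per 10000 marker CPM in the controls and 11.8 and 11.2 in the homozygous libraries. Pla2g4a stood at 25.3, 27.3 and 37.8 and at 31.7 and 37.99. Ptgs2 stood at 7.50, 9.31 and 17.1 and at 8.36 and 10.9. On this scale, as for Ptgis, none of the 3 was lower in both homozygous libraries than in every heterozygous one. Tbxa2r was higher in both. Ptger1, lower in CPM, was also higher on this scale, at 1.38, 1.14 and 1.38 and at 1.99 and 1.68. A gene that falls less than the markers rises on it, so these values alone do not give the smooth muscle share of the RNA.

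Among the other receptors, 3 of 5 listed genes were tested, 0 called by edgeR and 1 lower by DESeq2 (Tbxa2r; 2.62% of all genes). Ptger2, a prostaglandin E2 receptor that raises cyclic AMP, was scarce, at 14 to 28 counts per library, with a log2 fold change of 0.59 (SE 0.356). Ptgfrn, a membrane partner of the Ptgfr protein, was at -0.01 (SE 0.114). The prostaglandin D2 receptor Ptgdr had 1 to 5 counts and Ptgdr2 had 0 to 2.

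Of the genes of uptake, export and inactivation, 4 of 6 had a positive fold change, as had 8587 of the 18192 genes tested. All 6 were tested, with 0 called by edgeR, 1 called higher by DESeq2 (Ptgr2; 3.35% of all genes), 4 higher at an unadjusted edgeR p under 0.05 (9.04% of all genes) and a median of 0.44. Ptgr2, a reductase that inactivates prostaglandins, stood at 41.5, 53.3 and 41.8 CPM and at 63.4 and 66.9 CPM, or 0.52 in log2 fold change (SE 0.129; edgeR adjusted p = 0.144; DESeq2 adjusted p = 0.0269, range 0.00776 to 0.584). Abcc4, an exporter of prostanoids, was at 0.56 (SE 0.165), Zadh2, a further reductase, at 0.36 (SE 0.105) and Ptgr1 at -0.12 (SE 0.194). Hpgd, the dehydrogenase that begins inactivation, was at 0.96 (SE 0.360), but it stood at 3.32 CPM in homozygous replicate 2 and 8.14 CPM in replicate 3, against 2.698 to 3.42 CPM in the controls, and its log2 fold change without homozygous replicate 3 was 0.17. Slco2a1, the prostaglandin uptake carrier, stood at 30.3 and 8.51 CPM in the homozygotes against 25.5 to 31.7 CPM in the controls. It was low in the library with the lowest endothelial sum, and its log2 fold change of -0.56 (SE 0.450) was 0.09 without that library. The part of endothelial RNA in it was not tested.

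Cyclic AMP genes, which act below Ptgir, Ptger3 and Ptger4, were tested in all 16 cases. DESeq2 called 1 higher and 1 lower (3.35% and 2.62% of all genes), edgeR called 0, and the median was -0.05. At an unadjusted edgeR p under 0.05, 4 were lower (6.75% of all genes) and 2 were higher (9.04%). Adcy5, an adenylyl cyclase, stood at 1124, 1150 and 1514.6 CPM in the controls and 889 and 728 CPM in the homozygotes, or -0.64 in log2 fold change (SE 0.170; edgeR adjusted p = 0.156; DESeq2 adjusted p = 0.00952, range 0.00283 to 0.629). Per 10000 CPM of summed smooth muscle markers it stood at 453, 448 and 625 and at 602 and 516, and the groups overlapped. Prkar2b, a regulatory subunit of protein kinase A, stood at 129, 165 and 106 CPM and at 248 and 248 CPM, or 0.89 in log2 fold change (SE 0.174; edgeR adjusted p = 0.109; DESeq2 adjusted p = 0.00042, range 6.84e-05 to 0.542). Without heterozygous replicate 2 edgeR called Prkar2b higher (adjusted p = 0.0466). The brown adipocyte, skeletal muscle and fibroblast marker sums were likewise highest in both homozygotes and lowest in heterozygous replicate 3. Their part in the Prkar2b difference was not tested.

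Of 9 lipoxygenase and leukotriene genes, the neighbouring branch of arachidonate metabolism, 6 were tested, edgeR and DESeq2 called 0, 2 were higher at an unadjusted edgeR p under 0.05 (9.04% of all genes) and the median was 0.44. Those 2, named after their values were seen, were Alox5, a lipoxygenase of leukocytes (0.60, SE 0.249), and Cysltr1, a leukotriene receptor (0.72, SE 0.252). The macrophage markers given above were higher in the same libraries, and their part was not tested. Lta4h, a leukotriene hydrolase, was at -0.10 (SE 0.0965) and Alox5ap, a helper protein of leukotriene synthesis found in leukocytes, at 0.45 (SE 0.220).

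**Figure D5:**
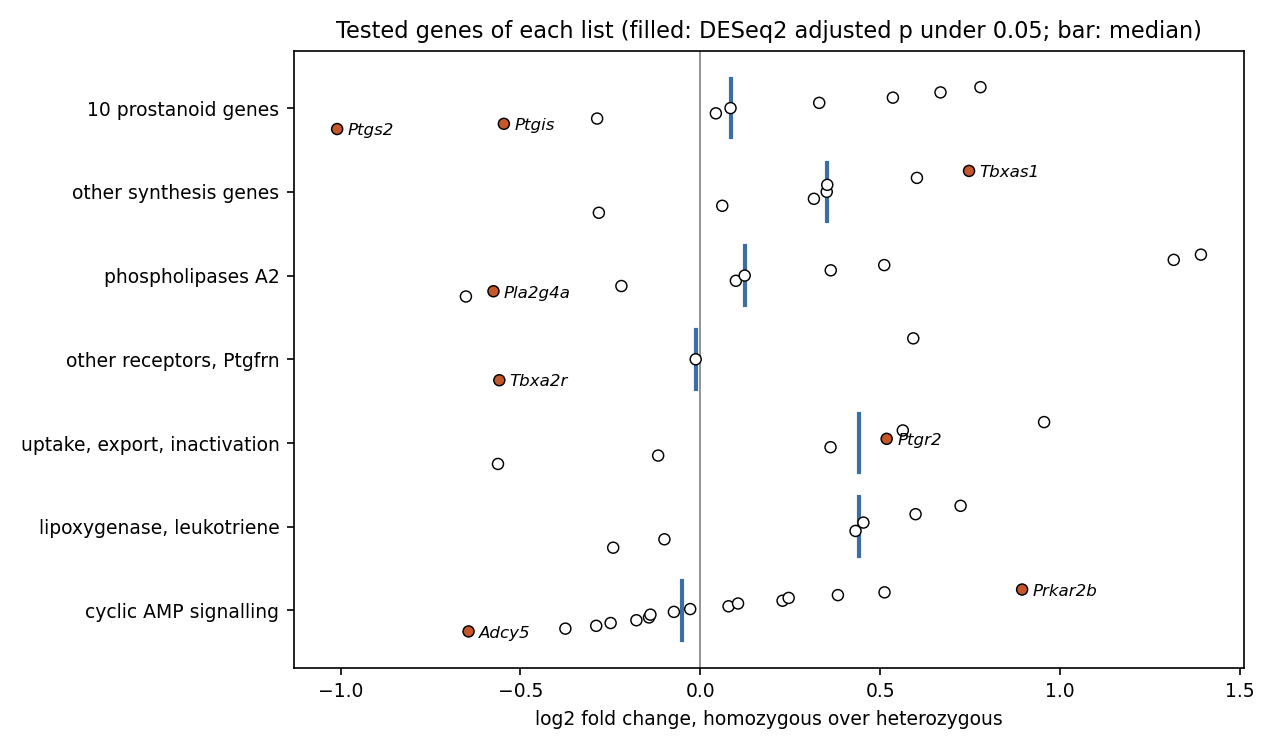
Log2 fold change, homozygous over heterozygous (x axis), of every tested gene in the 10 prostanoid genes and 6 further lists (y axis), with bars at list medians. Filled points have a DESeq2 adjusted p under 0.05. Ptgs2, Ptgis, Pla2g4a, Tbxa2r and Adcy5 are filled on the lower side and Tbxas1, Ptgr2 and Prkar2b on the higher side.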

How the data were processed

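Per the labels, mRNA of single aortae was made into libraries with a stranded kit. The submitters' processing notes name GRCm38, featureCounts (Subread 1.6.4), STAR 2.7.0f and fastp 0.20.0. Neither an annotation release nor the strand option used in counting is given in the sources read, so overlapping genes on opposite strands may not have been told apart. One overlap is not reported here. The authors deposited raw counts per gene with no normalization, and 5 samples were analysed.

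Genes passing filterByExpr were scaled by TMM and tested with the quasi-likelihood F test of edgeR 4.0.16 (R 4.3.3) on group alone, with 3 residual and 4.01 prior degrees of freedom and Benjamini-Hochberg adjustment at 0.05. The SE is the absolute log2 fold change over the square root of F. The p-values describe spread among 5 mice, 1 library each, and every 2 libraries of a group differed beyond sampling noise. Alternatives were DESeq2 1.42.0, its size factors in edgeR, limma-voom (limma 3.58.1), no filter or a stricter filter, a replicate block, and each library left out. The fits and the motif search were checked on simulated data.

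Exon lengths came from GENCODE M21 (GRCm38), and promoters from RefSeq. The members and lists were chosen with earlier results of these data known. Named are all members, every tested gene of the 3 lists on synthesis, receptors and removal, and DESeq2-called genes or else the 2 most abundant of other pathway lists. Also named are the most abundant gene of each marker list, Srf, and the 3 genes nearest in pattern to the 2 tested members with the largest fold changes. Marker genes at 0, genes overlapping a member and the comparison with summed smooth muscle markers were named or made after values were seen. So was the grouping of members beside marker sums of a cell type. Fibroblast markers (Col14a1 the most abundant) summed to 1510 to 1804 CPM in heterozygous and 1902 to 2001 CPM in homozygous libraries. Schwann cell markers (Pmp22) summed to 142 to 200.3 CPM and 195 to 198 CPM. Mesothelial markers (Muc16) summed to 0.800 to 12.4 CPM and 0.884 to 7.96 CPM, with Upk1b, Wt1 and Muc16 at 0 in a library. Endothelial markers were led by Vwf.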

Additional observations from a re-analysis of the deposited data

How the results depend on the processing

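Of 99 alternative values of the 9 tested members' fold changes, 90 kept direction and call, 4 came to pass the threshold and 5 turned sign. The members called lower were 2 with DESeq2 and 2 with no filter on low counts, against 0 in the main fit and 0 with each library left out. Among all genes edgeR called 0, DESeq2 524 higher and 411 lower, edgeR with no filter 982 and 432, and edgeR without heterozygous replicate 2 called 139 and 9. Members called higher were 0 in the 12 settings run. The Ptgs2 share of cyclooxygenase counts kept its sign, from -24.4 to -8.46 points with each library left out and -16.2 points per kb. With 1 mismatch allowed, 1 member window held a CArG box. Levels on plain library totals stayed within 1 SD, but on them the Ptger1 groups overlapped. With each library left out in turn, log2 fold changes turned sign for Ptgs1 (-0.29 to 0.38, negative without homozygous replicate 2), Ptger4 (-0.43 to 0.41, negative without homozygous replicate 2 and, at -0.040, without heterozygous replicate 3), Hpgds (-0.044 to 1.04), Akr1b3 (-0.012 to 0.13), Slco2a1 (-1.75 to 0.087) and Vwf (-1.80 to 0.48), the last 4 on leaving out homozygous replicate 3. They also turned for Ptgfrn (-0.057 to 0.082, with 0.0094 without homozygous replicate 2), Ptgr1 (-0.24 to 0.0085), Muc16 (-4.38 to 0.64, with 0.35 without homozygous replicate 2) and Pmp22 (-0.0030 to 0.19). Ptger4 was -0.033 and Muc16 0.42 with limma-voom, and Ptgfrn was 0.0014 with no filter. The causes were not tested. Where a single homozygous library was left, its spread was taken from that of the controls. Ptgds, at 1 to 18 counts, did not pass the filter on low counts.

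The labels do not say that replicate numbers pair mice, and only numbers 2 and 3 are shared by both groups. The deviations of same-numbered libraries correlated at -0.0099 and -0.19. The deviations of the 2 homozygous libraries from their own mean are mirror images, so these values cannot tell whether mice were paired. With the replicate block edgeR called 3 genes higher and 2 lower among all genes and 0 members. Ptgs1 was -0.0055, Ptgfrn 0.081 and Ptgr1 0.021 in that fit, and Ptgs2 -1.20 (adjusted p = 0.0562).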
